A study of Mus musculus with 7 samples.

Results

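The genes that write and erase DNA methylation were examined in chromatin-associated RNA from mouse embryonic stem cells (mESCs) in which Xist had been induced. They comprise 8 genes taken by name from the 22556 genes of the count files: the methyltransferases Dnmt1, Dnmt3a, Dnmt3b and the cofactor Dnmt3l, the maintenance factor Uhrf1, and the dioxygenases Tet1, Tet2 and Tet3. All 8 were present in the 7 libraries and passed every filter on low counts. The cells are XX hybrids of 129S, a Mus musculus domesticus strain (Dom), and Mus castaneus (Cast), grown in serum with LIF. In iXist-ChrX-Dom (4 libraries) a TetOn promoter replaces the endogenous Xist promoter on the Dom allele, and in iXist-ChrX-Cast (3 libraries) it does so on the Cast allele. All libraries came from undifferentiated cells given 1 µg/mL doxycycline for 10 days, so both groups had Xist on. Each line is a single clone, so a difference between lines cannot be told apart from a difference between clones. No uninduced sample was analysed here, and no value is a response to Xist. The study calls these libraries replicates, of iXist-ChrX-Dom replicate experiments, but the labels do not say whether separate cultures were induced. If they were not, p-values measure only a technical spread between libraries.

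The labels of some libraries conflict with other fields. Replicates 3 and 4 of iXist-ChrX-Dom are described as d1, whereas their titles and treatment field give 10 days, which was followed. For replicates 1 and 2 of iXist-ChrX-Cast, the clone in the file name differs in 1 character from that in the labels. Replicates 1 and 2 of both lines also follow a different file-naming scheme from replicates 3 and 4. This split is called the sample set, although the labels name no batch. Within iXist-ChrX-Dom it coincides with the d1 description and within iXist-ChrX-Cast with the clone name, so these cannot be told apart. Results are therefore given with and without these libraries.

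Methylation of cytosine in CpG dinucleotides is copied to the new DNA strand by DNMT1, which UHRF1 brings to hemimethylated sites. DNMT3A and DNMT3B place new methylation, and DNMT3L, which has no catalytic activity, stimulates both. The TET enzymes oxidise methylcytosine and start its removal. Female mESCs with both X chromosomes active are known for a low level of DNA methylation, which has been tied to the dose of X-linked genes such as Dusp9 and Klhl13. DNA methylation itself was not measured in these libraries.

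Libraries held 14877384 to 24309806 counted fragments, and 44.2% to 46.4% of them were assigned to an allele. Xist was used to check the labels: 0.0773% to 0.125% of its allelic fragments came from Cast in iXist-ChrX-Dom, and 94.0% to 94.7% did in iXist-ChrX-Cast. Of the mESC markers, 9 of 9 exceeded 1 CPM in every library. Their summed level was 1423 to 1746 CPM in iXist-ChrX-Dom versus 1678 to 1835 CPM in iXist-ChrX-Cast. Markers of the feeder fibroblasts summed to 27.4 to 41.5 and 31.5 to 38.3 CPM. Primitive endoderm markers summed to 52.2 to 62.9 and 51.0 to 63.5 CPM. Neural markers summed to 33.7 to 56.4 and 28.6 to 32.7 CPM, with Sox1 at 0, and primed epiblast markers to 39.6 to 52.5 and 60.0 to 69.6 CPM. Fewer cells of a type and less RNA per cell cannot be told apart in such bulk samples.

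The levels of the 8 genes spanned a wide range, with Tet1 at the top and Tet3 at the bottom. Because fragments were counted over introns and exons alike, levels were compared between genes as CPM per kb of the counted gene, where CPM is counts per 1000000 fragments after scaling between libraries. Tet1 averaged 26.6 ± 2.82 CPM per kb (SD, n = 7), higher than 98.7% of the 15186 genes tested. Uhrf1 followed at 9.08 ± 0.88 CPM per kb. Dnmt3b (5.67 ± 0.26), Tet2 (5.52 ± 0.71) and Dnmt1 (5.27 ± 0.31) formed a middle group. The order within this group was not stable, since Dnmt3b exceeded Tet2 in 2 of 7 libraries and Tet2 exceeded Dnmt1 in 5 of 7. Dnmt3l (3.12 ± 0.56) lay below them in all 7 libraries. Dnmt3a had 0.70 ± 0.047 and Tet3 0.238 ± 0.024 CPM per kb, and Tet3 exceeded only 28.8% of genes tested. Ranges of all other neighbours in this order were apart, as the plot of levels per kb shows.

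**Figure D1:**
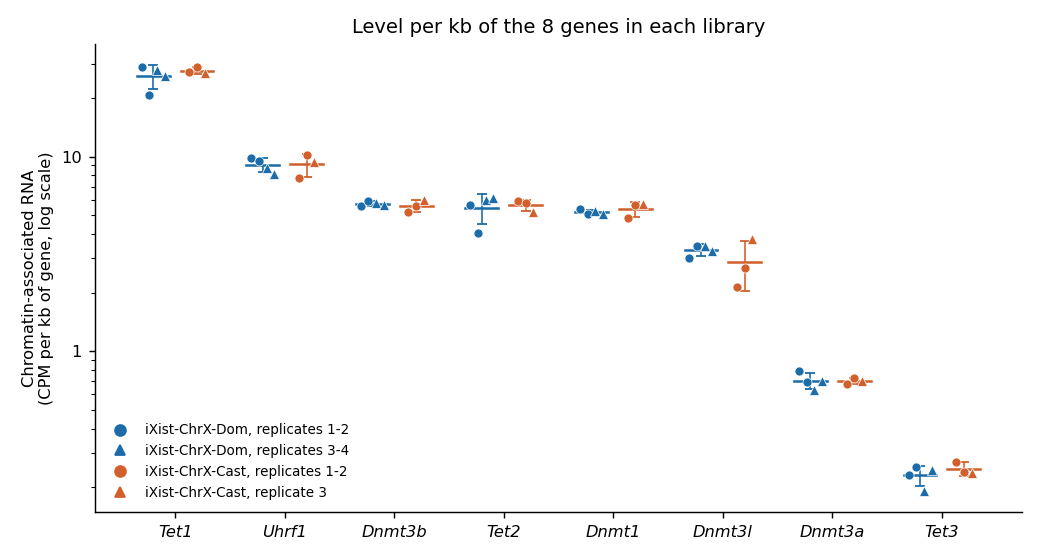
Level of the 8 genes in CPM per kb of counted gene (y axis, log scale), 1 point per library, for iXist-ChrX-Dom (blue, n = 4) and iXist-ChrX-Cast (orange, n = 3). Lines and bars are the mean ± SD, and triangles mark replicates 3 and 4. Tet1 lies between 20.7 and 28.9 in all libraries, Tet3 between 0.192 and 0.271, and the 2 lines overlap for every gene.

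Of the maintenance genes, Dnmt1 varied less across the 7 libraries (SD 5.86% of the mean) than Uhrf1 (9.73%). Dnmt1 (chromosome 9, 20907205 to 20959888, minus strand, mm10) had 282.5, 266.1, 275.4 and 268.2 CPM across replicates 1 to 4 of iXist-ChrX-Dom and 254.7, 296.6 and 298.8 CPM across replicates 1 to 3 of iXist-ChrX-Cast. The iXist-ChrX-Cast libraries included both the lowest and the highest value. The log2 fold change of iXist-ChrX-Dom over iXist-ChrX-Cast was -0.05 (95% interval -0.26 to 0.16). Uhrf1 (chromosome 17, 56303336 to 56323486, plus strand), whose product recognises hemimethylated CpGs, had 197.6, 191.3, 177.0 and 164.0 CPM across iXist-ChrX-Dom and 157.0, 205.8 and 188.4 CPM across iXist-ChrX-Cast. All 4 iXist-ChrX-Dom values lay inside the range of iXist-ChrX-Cast. Its log2 fold change was -0.01 (-0.27 to 0.25).

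The de novo genes included the steadiest and the most variable of the 8. Dnmt3b (chromosome 2, 153649448 to 153687730, plus strand) had 212.6, 226.1, 222.1 and 216.8 CPM across iXist-ChrX-Dom and 199.5, 214.1 and 228.7 CPM across iXist-ChrX-Cast, a coefficient of variation (CV) of 4.53% over 7 libraries. For comparison, the middle of the 8960 genes with at least 10 CPM, from the lower to the upper quartile, had CVs of 9.78% to 19.9%. Dnmt3a (chromosome 12, 3806979 to 3914443, plus strand) had 84.5, 74.3, 68.1 and 75.7 CPM across iXist-ChrX-Dom and 72.7, 78.5 and 75.5 CPM across iXist-ChrX-Cast. The iXist-ChrX-Cast range lay inside that of iXist-ChrX-Dom.

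Dnmt3l (chromosome 10, 78042286 to 78063622, plus strand) varied most, with a CV of 17.8%. It had 63.9, 74.4, 73.9 and 70.2 CPM across iXist-ChrX-Dom and 45.8, 57.1 and 80.2 CPM across iXist-ChrX-Cast. Replicates 1 and 2 of iXist-ChrX-Cast were the lowest of the 7 libraries, and replicate 3 of the same line was the highest. Its log2 fold change between lines was 0.21 (-0.17 to 0.58). This value depended on the iXist-ChrX-Cast libraries included. It was 0.46 without replicate 3 (adjusted p = 0.056), 0.04 without replicate 1, and -0.18 without both libraries of the other clone name. Within replicates 1 and 2 of both lines it was 0.43 (adjusted p = 0.056). Dnmt3l overlaps Aire on the opposite strand over 1325 bases, 6.21% of its length. Aire held 131 to 210 fragments per library against 651 to 1830 for Dnmt3l, and counting used strand.

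Dnmt3b and Dnmt3l were the pair of members whose levels varied together most closely over the libraries. Pearson r of their log2 CPM was 0.959 (exact permutation p = 0.000595, adjusted over 28 pairs of members 0.0167, n = 7). Spearman rho was 0.964 (exact permutation p = 0.00278, adjusted 0.0778, n = 7), which did not pass the adjustment. Without the pair of libraries farthest from the median of Dnmt3b, r was 0.815. Each line and each sample set holds fewer than 6 libraries, so no r is given within one. With each sample set centred on its own mean r was 0.954, and over the 144 orders of libraries within sets the exact permutation p was 0.0208 (adjusted 0.292, n = 7), which did not pass. The smallest p of that test is 0.00694, too large for 1 pair to pass alone over 28. In the same test within sets, Dnmt1 and Uhrf1 had a lower p (r = 0.889, exact permutation p = 0.0139, adjusted 0.292, n = 7). Of the other 15185 genes tested, 0.171% had an r at least as high with Dnmt3b and 0.402% with Dnmt3l. No other pair passed over all orders. Dnmt1 and Uhrf1 had r = 0.764 there (exact permutation p = 0.0528, adjusted 0.63, n = 7) and rho 0.607 (exact permutation p = 0.167, adjusted 0.774, n = 7). For Tet1 and Tet2, r was 0.857 (exact permutation p = 0.0823, adjusted 0.63, n = 7) and rho 0.143 (exact permutation p = 0.783, adjusted 0.876, n = 7). That relation rested on few libraries, since r was -0.054 without the pair farthest from the median of Tet1. Dnmt3a had r = -0.149 with Dnmt3b (exact permutation p = 0.754, adjusted 0.88, n = 7) and -0.116 with Dnmt3l (exact permutation p = 0.792, adjusted 0.888, n = 7); rho was -0.25 and -0.214.

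The promoters of these 3 genes are shown because Dnmt3b and Dnmt3l were the most correlated pair, whereas Dnmt3a did not pass the test with either. The sequences are RefSeq reference sequence (GRCm38.p6, not the Dom or Cast alleles), 150 bases 5′ to 3′ up to the annotated start nearest to that of the count files, with CpG dinucleotides in capitals.
Dnmt3b, chr2:153649299-153649448, plus strand: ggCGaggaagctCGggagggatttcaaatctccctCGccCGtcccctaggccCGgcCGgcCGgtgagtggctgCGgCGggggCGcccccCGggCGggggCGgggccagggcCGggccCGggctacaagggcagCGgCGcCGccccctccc
Dnmt3l, chr10:78042137-78042286, plus strand: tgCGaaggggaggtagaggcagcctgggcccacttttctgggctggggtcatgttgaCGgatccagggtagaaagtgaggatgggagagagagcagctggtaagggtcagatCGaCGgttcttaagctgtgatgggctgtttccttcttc
Dnmt3a, chr12:3806830-3806979, plus strand: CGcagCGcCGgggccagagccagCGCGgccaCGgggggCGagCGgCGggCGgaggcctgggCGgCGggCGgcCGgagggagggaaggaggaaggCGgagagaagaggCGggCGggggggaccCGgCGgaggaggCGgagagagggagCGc

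The printed stretches hold 18 CpGs in Dnmt3b, 4 in Dnmt3l and 21 in Dnmt3a. Over the 250 bases upstream of the start, Dnmt3b had 21 CpGs, Dnmt3l 5 and Dnmt3a 38, against a median of 6 over the 32851 promoters of the table. The letters GGGCGG, searched on both strands, were found in that window of Dnmt3b and Dnmt3a but not of Dnmt3l, and 32.7% of all promoters hold them. At an annotated start 7556 bases into Dnmt3l the window did hold them, with 4 CpGs. Dnmt3b has no other start in the table, and Dnmt3a had 40 CpGs and 15 CpGs at its others. Among the other members, Tet2 had 51 CpGs in the window, more than 99.9% of promoters, Tet3 had 17 and Tet1 15. For Tet1 the nearest table start lies 7310 bases upstream of the start of the counted gene. Uhrf1 had 10 and, at a start 977 bases into the gene, 30, and Dnmt1 had 2 at the start of the count files but 26 at another annotated start 7265 bases into the gene.

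The erasers were led by Tet1, the main TET enzyme of mESCs. Tet1 (chromosome 10, 62804569 to 62880014, minus strand) had 2182, 1561, 2095 and 1957 CPM across iXist-ChrX-Dom and 2049, 2179 and 2027 CPM across iXist-ChrX-Cast. Tet2 (chromosome 3, 133463676 to 133544390, minus strand) had 456.3, 327.4, 480.5 and 494.4 CPM across iXist-ChrX-Dom and 474.5, 468.3 and 417.9 CPM across iXist-ChrX-Cast. Replicate 2 of iXist-ChrX-Dom, the most deeply sequenced library, was the lowest of the 7 for both genes. The log2 fold change of Tet2 between lines was -0.04 over all libraries (-0.36 to 0.27) and 0.07 without this library. Tet3 (chromosome 6, 83362373 to 83441678, minus strand) had 18.3, 20.0, 15.2 and 19.4 CPM across iXist-ChrX-Dom and 21.5, 18.9 and 18.7 CPM across iXist-ChrX-Cast, from 285 to 493 fragments per library. Its lines overlapped as well.

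The 2 lines were compared to ask whether these genes differ where Xist acts on the Dom or on the Cast X chromosome. None of the 8 genes differed in total counts at an adjusted p of 0.05 (edgeR quasi-likelihood test), and 0 had an unadjusted p under 0.05, against 17.4% of all genes tested. Over all 15186 genes tested, 443 were called (2.92%). With a block per replicate number, 1794 genes were called (11.8%), and with the sample set as a covariate 2398 (15.8%), again with 0 of the 8. DESeq2 also called 0 of them. The lowest adjusted p was 0.585, for Dnmt3l. The median absolute log2 fold change was 0.049 over the 8 genes and 0.188 over all genes tested. These backgrounds were not matched to the 8 in level or chromosome. They include genes under 10 CPM on average, unlike any of the 8, and genes of chromosomes 1, 5, 8, 12, 14 and X. For the 7 genes other than Dnmt3l, the 95% intervals lay between -0.42 and 0.27. In simulated data of this design, 25% of genes changed by 0.5 on the log2 scale and 93% of those changed by 1 were found. These rates were not computed for the 8 genes themselves. In the fit without a covariate, the intervals of the 7 genes did not reach 0.5 in either direction. That of Dnmt3l (-0.17 to 0.58) included 0.5, so a change of this size could have been missed for Dnmt3l. Without both libraries described as d1, and without both of the other clone name, 0 of the 8 were called. Of the primed epiblast markers, whose summed levels did not overlap between the lines, 0 of 4 were called, and with the replicate block Fgf5 was (-0.87, adjusted p = 0.000438). Of the mESC markers 1 of 9 was called, Tbx3 (-1.06, adjusted p = 0.00316), and with the block 3, all lower in iXist-ChrX-Dom. The block also called 2 of 3 neural markers, both higher, and 1 of 5 primitive endoderm markers, lower. Of the called markers, Fgf5, Tbx3 and the primitive endoderm marker Pdgfra lie on chromosome 5 and Tfcp2l1 on chromosome 1. These chromosomes are among those of unbalanced allelic share described below. The called markers Klf4, Nes and Pax6 lie on chromosomes 4, 3 and 2. The part of copy number in these calls was not tested.

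**Figure D2:**
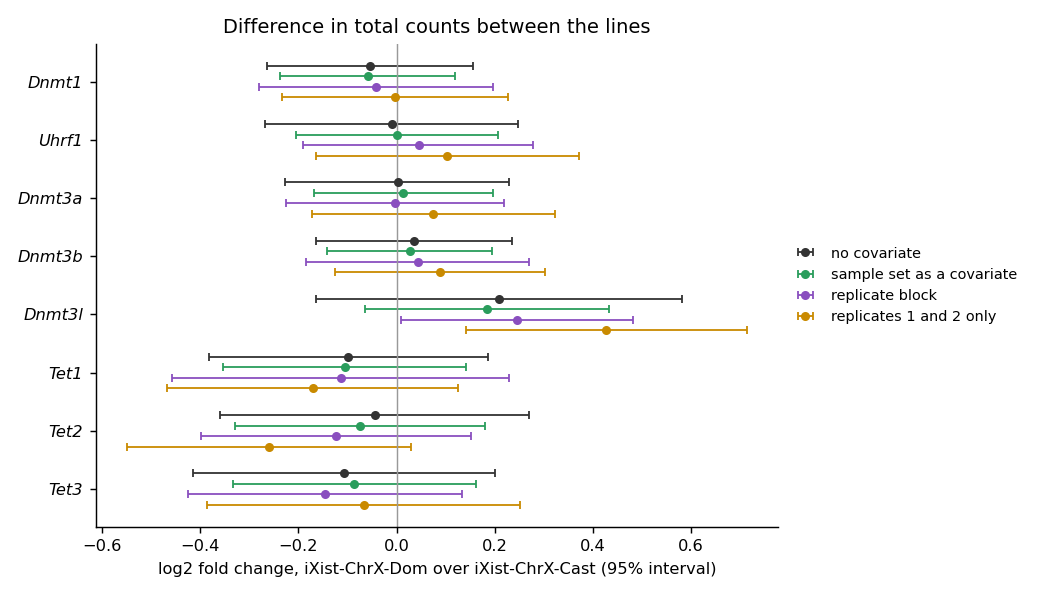
Log2 fold change of iXist-ChrX-Dom over iXist-ChrX-Cast with its 95% interval (x axis) for each of the 8 genes (y axis), from edgeR on all 7 libraries without a covariate, with the sample set as a covariate, with a replicate block, and on replicates 1 and 2 only. Without a covariate every interval includes 0, and Dnmt3l is the only gene whose interval lies above 0 in some of the other fits (0.14 to 0.71 within replicates 1 and 2).

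Between the sample sets (replicates 3 and 4 over replicates 1 and 2, with the line as a covariate), 4606 genes were called (30.3%) but 0 of the 8, by edgeR or DESeq2, with 1 at an unadjusted p under 0.05 (41.9% of all genes). Dnmt3l was nearest, with a log2 fold change of 0.29 ± 0.12 (SE, adjusted p = 0.066). It passed without iXist-ChrX-Dom replicate 2 (0.40, adjusted p = 0.0135), without iXist-ChrX-Dom replicate 4 (0.37, adjusted p = 0.0451), and with no filter on low counts (0.30, adjusted p = 0.0141). Without both libraries described as d1 the log2 fold change of Dnmt3l was 0.63, but this leaves 1 library, iXist-ChrX-Cast replicate 3, in the second set. The log2 fold change of Dnmt3l was 0.07 within the iXist-ChrX-Dom libraries and 0.06 without iXist-ChrX-Cast replicate 3, the only library of its line in the second set. The other 7 genes lay between -0.13 for Tet3 and 0.12 for Tet2. Some genes of the marker lists were called between the sample sets too, beside the 30.3% of all genes. The lists are short and their counts are a description. In replicates 3 and 4, 3 of 9 mESC markers were higher and 2 of 4 primed epiblast markers lower. All 3 neural markers tested were called, Pax6 (-0.97) and Nes (-0.67) lower and Tubb3 (0.43) higher. Of 5 primitive endoderm markers, Gata4 (0.78) and Gata6 (0.73) were higher and Dab2 (-0.68) lower, and of 9 feeder markers 1 was higher and 1 lower. Their part in the values of Dnmt3l was not tested.

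Each library also gives the level of both alleles, as the Cast share of allelic fragments. On autosomes other than chromosomes 1, 5, 8, 12 and 14, called balanced here, the median share was 46.4% to 47.0% per library, below 50%, and log2 ratios of Cast over Dom are given relative to these autosomes. Those 5 were left out of the scaling because their shares were unbalanced in earlier results of these data. Dnmt3a is on chromosome 12, but the median share of the 23 genes within 2 Mb of it was 46.9%. Medians within 2 Mb of the other members were 45.3% to 47.3%. Of the 12029 autosomal genes tested, 66.2% were called, 39.0% with Cast higher and 27.2% with Dom higher. Of the 8 genes, 5 were called, 3 with Cast higher and 2 with Dom higher. With a log2 ratio of at least 0.5 either way in addition, 33.7% of genes and 3 of the 8 (Dnmt3a, Dnmt3b and Tet3) were called. These counts depend on the scaling. With 1 depth for both alleles, 68.9% of genes were called, 24.1% with Cast higher and 44.8% with Dom higher, and 7 of the 8, 2 with Cast higher and 5 with Dom higher. The size threshold was then passed by 33.8% of genes and by Dnmt3a and Tet3 alone of the 8.

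All 3 de novo genes leaned to Cast. Dnmt3a had a Cast share of 59.9%, 58.4%, 57.2% and 61.6% across iXist-ChrX-Dom and 57.9%, 61.6% and 57.6% across iXist-ChrX-Cast, on 311 to 615 allelic fragments. Every library was above the balanced median. The log2 ratio of Dnmt3a was 0.74 ± 0.058 (SE, adjusted p = 7.86e-11), a 1.67-fold higher level of the Cast allele relative to the balanced autosomes. With 1 depth for both alleles the log2 ratio was 0.54, or 1.45-fold. Dnmt3b had 54.2%, 54.9%, 54.4% and 54.6% across iXist-ChrX-Dom and 56.8%, 56.6% and 57.2% across iXist-ChrX-Cast. Its log2 ratio was 0.53 ± 0.030 (adjusted p = 1.73e-13), and 0.33 with 1 depth for both alleles. Dnmt3l had 45.5%, 50.5%, 49.9% and 52.1% across iXist-ChrX-Dom and 48.2%, 49.4% and 52.4% across iXist-ChrX-Cast, above the balanced median in 6 of 7 libraries. Its log2 ratio was 0.20 ± 0.055 (adjusted p = 0.00232). That call rested on the scaling, since with 1 depth for both alleles the ratio was 0.00 (adjusted p = 0.994).

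Uhrf1 and Tet3 leaned to Dom. Uhrf1 had a Cast share of 41.8%, 43.2%, 44.6% and 41.9% across iXist-ChrX-Dom and 39.4%, 38.9% and 41.7% across iXist-ChrX-Cast, below the balanced median in every library. Its log2 ratio was -0.30 ± 0.037 (adjusted p = 2.22e-07), and -0.50 with 1 depth for both alleles. Tet3 had 38.6%, 38.1%, 34.5% and 35.9% across iXist-ChrX-Dom and 39.3%, 35.8% and 34.9% across iXist-ChrX-Cast. Its log2 ratio was -0.58 ± 0.086 (adjusted p = 2.56e-06), and -0.785 with 1 depth for both alleles. Tet3 rested on 145 to 226 allelic fragments, and its Wilson 95% intervals per library ran from 27.2% at the lowest to 47.4% at the highest, which cover counting error only. Feeder fibroblast markers were lower from Cast as well, 6 of 7 tested called with Dom higher, at a median log2 ratio of -1.81. Their part in the values of Uhrf1 and Tet3 was not tested.

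Dnmt1, Tet1 and Tet2 were close to the balanced autosomes. Dnmt1 ranged from 46.0% to 48.4% (log2 ratio 0.05, adjusted p = 0.133). Tet1 ranged from 46.1% to 47.7% on 11740 to 20126 allelic fragments (0.04, adjusted p = 0.123), and Tet2 from 44.4% to 48.2% (0.03, adjusted p = 0.385). With 1 depth for both alleles, which leaves the general tilt to Dom in place, these 3 were called with Dom higher (-0.15, -0.16 and -0.18). Tet1 was called at 0.04 with the sample set as a term (adjusted p = 0.0453). Without both libraries described as d1, and without both of the other clone name, Dnmt3a, Dnmt3b, Dnmt3l, Uhrf1 and Tet3 were called in the same directions.

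**Figure D3:**
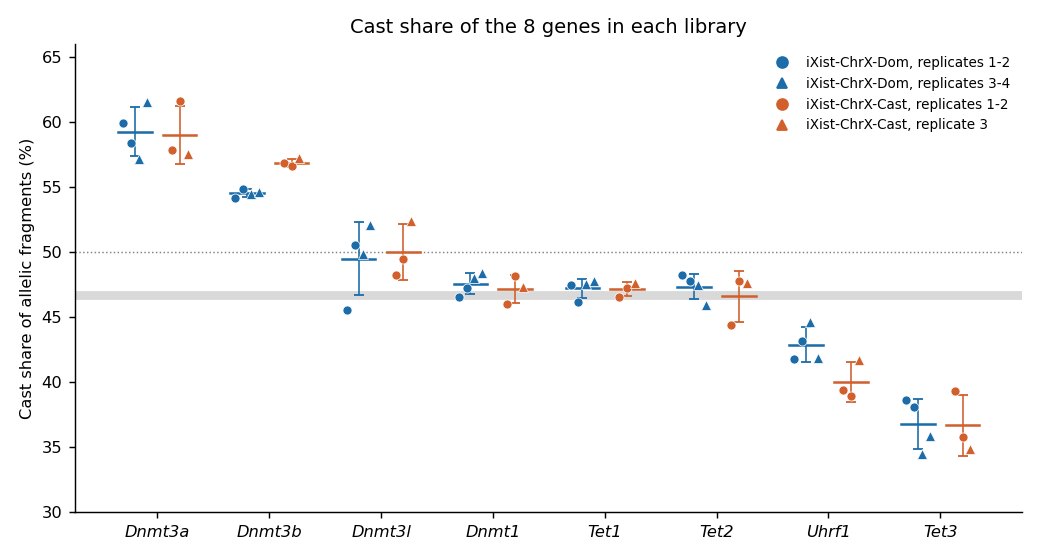
Cast share of allelic fragments in percent (y axis) of the 8 genes, 1 point per library, for iXist-ChrX-Dom (blue, n = 4) and iXist-ChrX-Cast (orange, n = 3), with the mean ± SD. The grey band is the range over libraries of the median of balanced autosomes (46.4% to 47.0%), and the dotted line is 50%. Dnmt3a and Dnmt3b lie above the band in all libraries, and Uhrf1 and Tet3 below it.

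The shares were then compared between the lines, which carry the inducible Xist on different parental chromosomes. Of the 12029 genes, 1798 were called (14.9%), and 0 of the 8 by edgeR or limma, with 2 at an unadjusted p under 0.05 (23.1% of all genes). The ranges of the lines did not overlap for these 2, Dnmt3b and Uhrf1, in opposite directions, against 21.0% of all genes, so their number is near the background. For Dnmt3b the share was 54.5 ± 0.30% in iXist-ChrX-Dom (SD, n = 4) against 56.9 ± 0.30% in iXist-ChrX-Cast (n = 3), a difference in log2 ratio of -0.13 (unadjusted p = 0.0437, adjusted p = 0.197). For Uhrf1 it was 42.9 ± 1.34% and 40.0 ± 1.52%, a difference of 0.18 (unadjusted p = 0.0269, adjusted p = 0.138). The closest libraries of Uhrf1 were 41.8% and 41.7%. Without both libraries of the other clone name the difference was 0.08 for Uhrf1 (adjusted p = 0.833) and -0.14 for Dnmt3b (adjusted p = 0.487). For the other 6 genes the difference lay between -0.03 for Dnmt3l and 0.05 for Tet2, with intervals from -0.32 to 0.40 at the widest, for Tet3.

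All tested genes were ranked by Pearson r of log2 CPM with each member, which measures shared variation and not a similar level. The 2 highest for each, over the 7 libraries, were listed as a description. They were Kat5 and Vill for Dnmt1, Rpl37 and C330006A16Rik for Uhrf1, Abcg3 and Gm15441 for Dnmt3a, Coq6 and Tcirg1 for Dnmt3b, Cox4i1 and Srebf1 for Dnmt3l, Kl and Zfp809 for Tet1, Bbip1 and Ccr4 for Tet2, and Hmgn3 and Dfna5 for Tet3. Their Pearson r lay between 0.949 and 0.995 (n = 7 libraries, which share depth and sample set). None of the 8 was among them.

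Other genes of DNA methylation were counted by role from a list of 54, of which 52 were in the files. Between the lines, 1 of the 49 tested was called (2.04%, against 2.92% of all genes). With the replicate block 7 of 49 were called (1 higher and 6 lower in iXist-ChrX-Dom), beside 11.8% of all genes. The called gene was Neil3, a DNA glycosylase of base excision repair, at 56.5 ± 8.34 CPM in iXist-ChrX-Dom (SD, n = 4) against 36.3 ± 2.09 CPM in iXist-ChrX-Cast (n = 3), a log2 fold change of 0.64 ± 0.13 (SE, adjusted p = 0.0375). It is on chromosome 8, and its Cast share was 65.7% in iXist-ChrX-Dom versus 46.6% in iXist-ChrX-Cast. The block added Kdm2b, Gadd45a, Apex1, Idh1, Idh2 and Cxxc5, all lower in iXist-ChrX-Dom, with log2 fold changes from -0.35 for Idh1 to -0.71 for Gadd45a. Kdm2b, Apex1 and Idh1 lie on chromosomes 5, 14 and 1, which like chromosome 8 are outside the balanced autosomes. Gadd45a, Idh2 and Cxxc5 lie on chromosomes 6, 7 and 18.

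Between the sample sets 17 of 49 were called (34.7%), 8 higher and 9 lower in replicates 3 and 4, near the 30.3% of all genes. The counts by role that follow are a description. Partners of maintenance methylation held 5 of these, 4 of them lower. Cdca7 (-0.61) and the remodeller Hells (-0.36), which act together, Uhrf2 (-0.45), a relative of Uhrf1, and the sliding clamp Pcna (-0.36) were lower, and the deacetylase Hdac1 (0.25) was higher. Among the other roles, 2 of 9 genes that recruit or oppose de novo methylation and 0 of 8 methyl-CpG readers were called. Base excision had 3 of 10 called, methyl donors 2 of 6, TET cofactors 2 of 4 and other relatives 3 of 4. Kdm2b, whose product binds unmethylated CpG islands, was higher in replicates 3 and 4 by 0.43 (adjusted p = 0.00129).

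The alleles of 28 of 43 listed genes differed (65.1%), 16 with Cast higher and 12 with Dom higher, near the 66.2% of all genes tested. By role, as a description, 8 of 9 genes that recruit or oppose de novo methylation were called, 7 with Cast higher. These included Prdm14, which represses de novo methyltransferases in mESCs (Cast share 74.4 ± 5.41%, SD, n = 7, log2 ratio 1.72), Kdm2b (1.28), and the histone methyltransferase genes Nsd1 (0.25) and Setdb1 (0.39). These directions are relative to the balanced autosomes and depend on that scaling. The mean Cast share itself was 48.8% for Trim28 and 50.8% for Nsd1 and Setd2, against 53.2% or more for Setdb1, Ehmt2, Kdm2b and Prdm14. Of the methyl donor genes, Mtrr (0.95) and Ahcy (0.79) were higher from Cast and Mat2a (-0.46), which makes S-adenosylmethionine, from Dom. The reader Zbtb38 (-1.62) and the glycosylase Neil2 (-2.39) had the lowest Cast shares of the genes named here, 22.3% and 12.9%. Hdac1 (0.44) was higher from Cast and Pcna (-0.36) from Dom. Of these genes, Prdm14, Kdm2b and Neil2 lie on chromosomes 1, 5 and 14, outside the balanced autosomes.

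Between the lines, the allelic ratios of 6 of 43 listed genes differed (13.95%), near the 14.9% of all genes, namely Kdm2b, Mbd3, Neil3, Parp1, Gadd45a and Mat2a. Kdm2b, on chromosome 5, had a Cast share of 56.6% in iXist-ChrX-Dom versus 77.4% in iXist-ChrX-Cast, a difference in log2 ratio of -1.37 (adjusted p = 2.33e-11). Neil3 differed in the opposite direction, by 1.14 (adjusted p = 1.38e-08). Chromosomes 5 and 8, which hold these 2 genes, are among those of unbalanced share named above, and copy number was not tested.

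**Figure D4:**
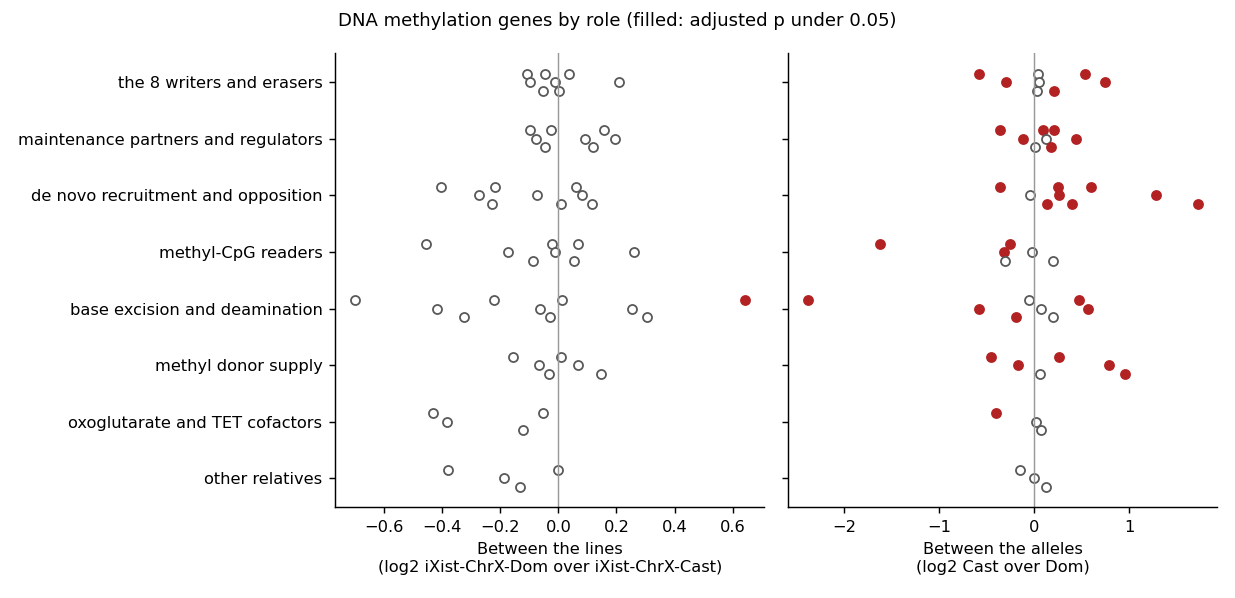
Log2 fold change between the lines (left, iXist-ChrX-Dom over iXist-ChrX-Cast) and log2 ratio between the alleles (right, Cast over Dom, relative to balanced autosomes) of each tested gene, grouped by role on the y axis, 1 point per gene and filled where the adjusted p was under 0.05. On the left, Neil3 (0.64) is the filled point, and on the right filled points lie on both sides of 0, from Neil2 (-2.39) to Prdm14 (1.72).

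The X-linked genes tied to methylation in XX mESCs differed between the lines in opposite directions. Klhl13, an adaptor of a ubiquitin ligase, was higher in iXist-ChrX-Dom, at 1566 ± 437.6 CPM (SD, n = 4) against 452.5 ± 124.8 CPM (n = 3), a log2 fold change of 1.79 ± 0.24 (SE, adjusted p = 0.00963). Dusp9, a phosphatase of MAP kinases, was lower, at 9.62 ± 0.61 against 18.4 ± 2.78 CPM, a log2 fold change of -0.93 ± 0.15 (adjusted p = 0.0156). The Cast share of Klhl13 was 96.5% in iXist-ChrX-Dom versus 21.9% in iXist-ChrX-Cast, and that of Dusp9 was 96.4% and 7.87%. Beside these changes the 8 writers and erasers had log2 fold changes between -0.11 and 0.21.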

How the data were processed

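Chromatin-associated RNA (ChrRNA-seq, stranded total RNA kit) had been sequenced from 7 libraries. The authors filtered out reads matching rRNA (bowtie2 2.3.2), mapped the remainder to an mm10 genome masked at strain polymorphisms (STAR 2.4.2a), split them by parental allele (SNPsplit) and counted fragments by strand over whole transcripts (featureCounts 1.5.2). The deposited counts are raw, in total and by allele. The deposited ratio tables hold the authors' X-linked allelic fractions, used only to check which column is Cast.

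Total counts were tested in R 4.3.3 by the quasi-likelihood F test of edgeR 4.0.16 (filterByExpr, TMM, two-sided, Benjamini-Hochberg over 15186 genes, threshold 0.05). Allelic counts were tested likewise with 1 term per library, over 12029 autosomal genes with at least 10 allelic fragments in every library. The SE is the absolute log2 change over the square root of F. Masking limits, but may not remove, alignment bias between alleles. Fragments carry no molecular identifiers. Depth was 14877384 to 24309806 fragments per library. Correlations of log2(CPM + 0.5) were tested over all 5040 orders of the libraries, and over the 144 orders within sample sets, a test added after seeing the data. The 8 genes, the pathway and marker lists and the tests were chosen with earlier results of these data known. All 8 genes were named, and of the pathway genes those called in any comparison, limited to the 12 of lowest p, with the rest by role. Genes beyond these 12 (Cdca7, Hells, Uhrf2, Gadd45a, Apex1, Idh1, Idh2, Cxxc5, Mbd3 and Parp1) were chosen after their values were seen. Where an allelic p was the lowest of the 4 comparisons, it set the rank.

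Same-numbered libraries of the lines deviated together over 15186 genes (correlations 0.329, 0.275 and 0.466), so the replicate block was fitted as well. Libraries of the same sample set but different number correlated alike (0.323 to 0.505). Replicates differed beyond sampling noise (chi-square per gene 6.12 to 37.3). Tests were tested on simulated data. DESeq2 1.42.0, limma 3.58.1, other scalings, filters and left-out libraries were alternatives.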

Additional observations from a re-analysis of the deposited data

How the results depend on the processing

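On leaving out any library, and under every other alternative run, 0 of the 8 genes were called between the lines in total counts or in Cast share, except that Dnmt3a, on chromosome 12, was not tested where that chromosome was left out. The number of all genes called between the lines moved from 443 to 1057 with DESeq2, 2398 with the sample set as a covariate, 1794 with the replicate block, 1685 in replicates 1 and 2 only and 24 without chromosomes 1, 5, 8, 12, 14 and X, where fewer genes were tested. Leaving out 1 library gave 18 to 1206. Fits without both libraries described as d1 (58) and without both of the other clone name (2, with 1 iXist-ChrX-Cast library assumed to vary like the rest) were added after seeing the data. They changed the Cast share counts between lines from 1798 to 1102 only in the latter. The cause was not tested for these shifts.

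Several log2 differences near 0 changed sign, none of them called. Between the lines, Uhrf1 (-0.010) became 0.001 with the sample set covariate, 0.045 with the replicate block, 0.103 in replicates 1 and 2 only and 0.078 without the d1 libraries. Dnmt3a (0.002) became -0.004 with the replicate block. Without the libraries of the other clone name, Dnmt3b became -0.056, Dnmt3l -0.180 and Tet2 0.078. Leaving out 1 library gave ranges of -0.056 to 0.047 for Dnmt3a, -0.009 to 0.086 for Dnmt3b, -0.107 to 0.079 for Uhrf1 and -0.105 to 0.073 for Tet2.

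Between the sample sets, all genes called (4606) fell to 2851 within iXist-ChrX-Dom, 1982 without the d1 libraries, and 2518 to 4447 on leaving out 1 library. Of the members, 1 (Dnmt3l) was called with no filter, and 0 to 1 on leaving out 1 library. Dnmt1 became -0.006 within iXist-ChrX-Dom. Without the d1 libraries, which leaves 1 library in the second set, Uhrf1 became 0.048, Tet1 -0.067 and Tet2 -0.180. Leaving out 1 library gave -0.012 to 0.072 for Dnmt1, -0.085 to 0.157 for Tet1 and -0.040 to 0.316 for Tet2.

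For the line difference in Cast share, Tet1 (0.012) became -0.002 with a minimum of 50 fragments and with the allele by replicate block, -0.014 without the d1 libraries and -0.011 without the other clone name. The block moved Dnmt3a to -0.037, the d1 libraries moved Dnmt1 to -0.011, and the clone name moved Tet2 to -0.004. Leaving out 1 library gave -0.015 to 0.054 for Dnmt1, -0.036 to 0.104 for Dnmt3a, -0.085 to 0.044 for Dnmt3l, -0.015 to 0.022 for Tet1, -0.024 to 0.080 for Tet2 and -0.030 to 0.101 for Tet3. Between the alleles, 1 depth for both alleles moved Dnmt1 to -0.152, Tet1 to -0.163 and Tet2 to -0.175, by construction of the scaling. The replicate block changed no call of the 8 genes. Depth limits Tet3 most, at 145 to 226 allelic fragments per library.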
